A study of Mus musculus with 8 samples.

Results

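The genes of de novo lipogenesis examined here are the enzymes Acly, Acaca, Acacb, Fasn, Elovl6, Scd1 and Scd2 and the regulatory proteins Thrsp, Mlxipl and Srebf1. They were chosen by name, and all 10 were measured, of 18820 genes tested. Each was read from the probe set assigned to it alone that had the highest mean over all arrays. RNA came from white adipose tissue of 8 male mice, with 1 array per mouse. Of these, 4 were adipocyte Sel1l-/- mice, bred from Sel1L-flox/flox mice and mice with Cre driven by the adiponectin promoter, and 4 were wildtype (WT) controls. That promoter is active mainly in adipocytes. The strain of all 8 was C57BL/6 (mixed C57BL/6N and C57BL/6J), and the diet of all 8 was high in fat (Research Diets D12492) for 5 weeks. The sources used here do not give the fat depot, the age, or whether the WT mice carried floxed Sel1l or Cre. Sel1l encodes the adapter of the Hrd1 complex, a ubiquitin ligase of the endoplasmic reticulum (ER) that marks misfolded proteins for degradation. The tissue also holds cells that the deletion was not directed at. Values are log2 intensities made with RMA, and the 4 arrays per group limit the precision.

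De novo lipogenesis builds fatty acids from carbohydrate. Acly splits exported citrate into acetyl-CoA, the acetyl-CoA carboxylases make malonyl-CoA, and Fasn assembles palmitate, which Elovl6 lengthens and the stearoyl-CoA desaturases Scd1 and Scd2 turn into monounsaturated fatty acids. Srebf1 encodes the precursor of SREBP-1, which is bound to the ER membrane and is cut to release a transcription factor, and Mlxipl encodes ChREBP, a factor that responds to glucose. Thrsp encodes Spot 14, a small protein induced with the lipogenic enzymes by carbohydrate and thyroid hormone. White fat of mice runs this pathway at a level that falls on a fatty diet.

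The stretches before the start sites of Thrsp and Fasn are shown because these were the 2 genes among the 10 with an unadjusted p under 0.05 between genotypes. They are the 250 bases before the RefSeq start on GRCm38.p6, written 5′ to 3′ on the strand of the gene, with matches to CCAAT on either strand in capitals. CCAAT is the core of sites bound by NF-Y, a factor known to act beside SREBP. The Thrsp stretch lies on the minus strand at chr7:97417551-97417800 and the Fasn stretch on the minus strand at chr11:120824548-120824797.
Thrsp: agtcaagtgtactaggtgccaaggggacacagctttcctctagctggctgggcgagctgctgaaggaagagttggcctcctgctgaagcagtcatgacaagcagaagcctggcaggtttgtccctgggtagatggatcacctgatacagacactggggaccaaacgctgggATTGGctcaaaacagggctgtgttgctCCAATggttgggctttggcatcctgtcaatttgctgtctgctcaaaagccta
Fasn: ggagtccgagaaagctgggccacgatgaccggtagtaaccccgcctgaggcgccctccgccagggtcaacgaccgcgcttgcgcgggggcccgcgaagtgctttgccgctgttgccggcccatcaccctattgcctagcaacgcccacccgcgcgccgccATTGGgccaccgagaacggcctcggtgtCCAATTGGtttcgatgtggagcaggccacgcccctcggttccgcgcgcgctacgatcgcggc
The Thrsp stretch held 2 matches to CCAAT, beginning 79 and 52 bases before the start and lying on opposite strands. The Fasn stretch held 3, beginning 90, 62 and 59 bases before the start, and the last 2 of these overlap on opposite strands. Neither stretch held the E box CACGTG, the GC box GGGCGG or the sterol regulatory element searched as TCACNCCAC. The RefSeq table held 11 such stretches for 8 of the 10 genes, since Mlxipl and Srebf1 have several starts. Of these 11, CCAAT was found in 6, the GC box in 4, the E box in 1 (Mlxipl) and the sterol element in 1 (another start of Mlxipl). Over all 32851 stretches of the same length in the table, the shares with a match were 33.8% for CCAAT, 32.7% for the GC box, 6.02% for the E box and 1.05% for the sterol element. A match to such letters is a description and not a shown binding site.

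Sel1l itself, the check of the genotype labels, averaged 9.78 ± 0.21 in Sel1l-/- and 10.57 ± 0.07 in WT tissue (SD, n = 4 each). The log2 fold change was -0.79, with a standard error of 0.10 and a limma adjusted p of 0.0109. The genotypes did not overlap, and the difference was negative in all fits, but it missed the threshold with the code letter (adjusted p = 0.151) or code number (0.0813) as a block, with no moderation (0.0540), and under the replicate block without number 1 (0.0716) or 3 (0.0557). The sources used here do not say where its probes lie relative to the deleted exons. Pairs of arrays correlated at 0.982 to 0.994. The titles number the mice 1 to 4 in each genotype, and a second fit used this number as a block. Each mouse also has a code with a letter and a number. Their meaning is not stated, and both were tried as blocks. Letter E belongs to WT 1, 2 and 3, letter F to WT 4 and Sel1l-/- 1 and 2, and letter G to Sel1l-/- 3 and 4. Outside letter F, a difference between genotypes cannot be told apart from one between letters. Code number 5 belongs to WT 1 and 4 and Sel1l-/- 3. Code number 7 belongs to WT 2 and Sel1l-/- 1 and 4, and code number 9 to WT 3 and Sel1l-/- 2. A difference within a code number thus rests on 1 or 2 mice per genotype.

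Thrsp had the largest difference of the 10 genes, with a 2.25-fold lower mean in Sel1l-/- fat, and Fasn came next with a 1.28-fold lower mean. The remaining 8 genes, among them both carboxylases, both desaturases and the 2 transcription factors, had log2 fold changes of -0.29 to 0.16. None of the 10 genes passed an adjusted p of 0.05 over all genes tested with limma, where 1.72% of all genes did (1.04% as higher and 0.685% as lower). Both Thrsp and Fasn fell past that threshold when the replicate number was a block, where 3.85% of all genes passed (1.9% as higher and 1.95% as lower). No member passed the threshold as higher in either fit. At an unadjusted p under 0.05 there were 2 of 10 members and 15% of all genes. The median log2 fold change of the 10 genes was -0.038, beside -0.0037 over all genes.

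**Figure D1:**
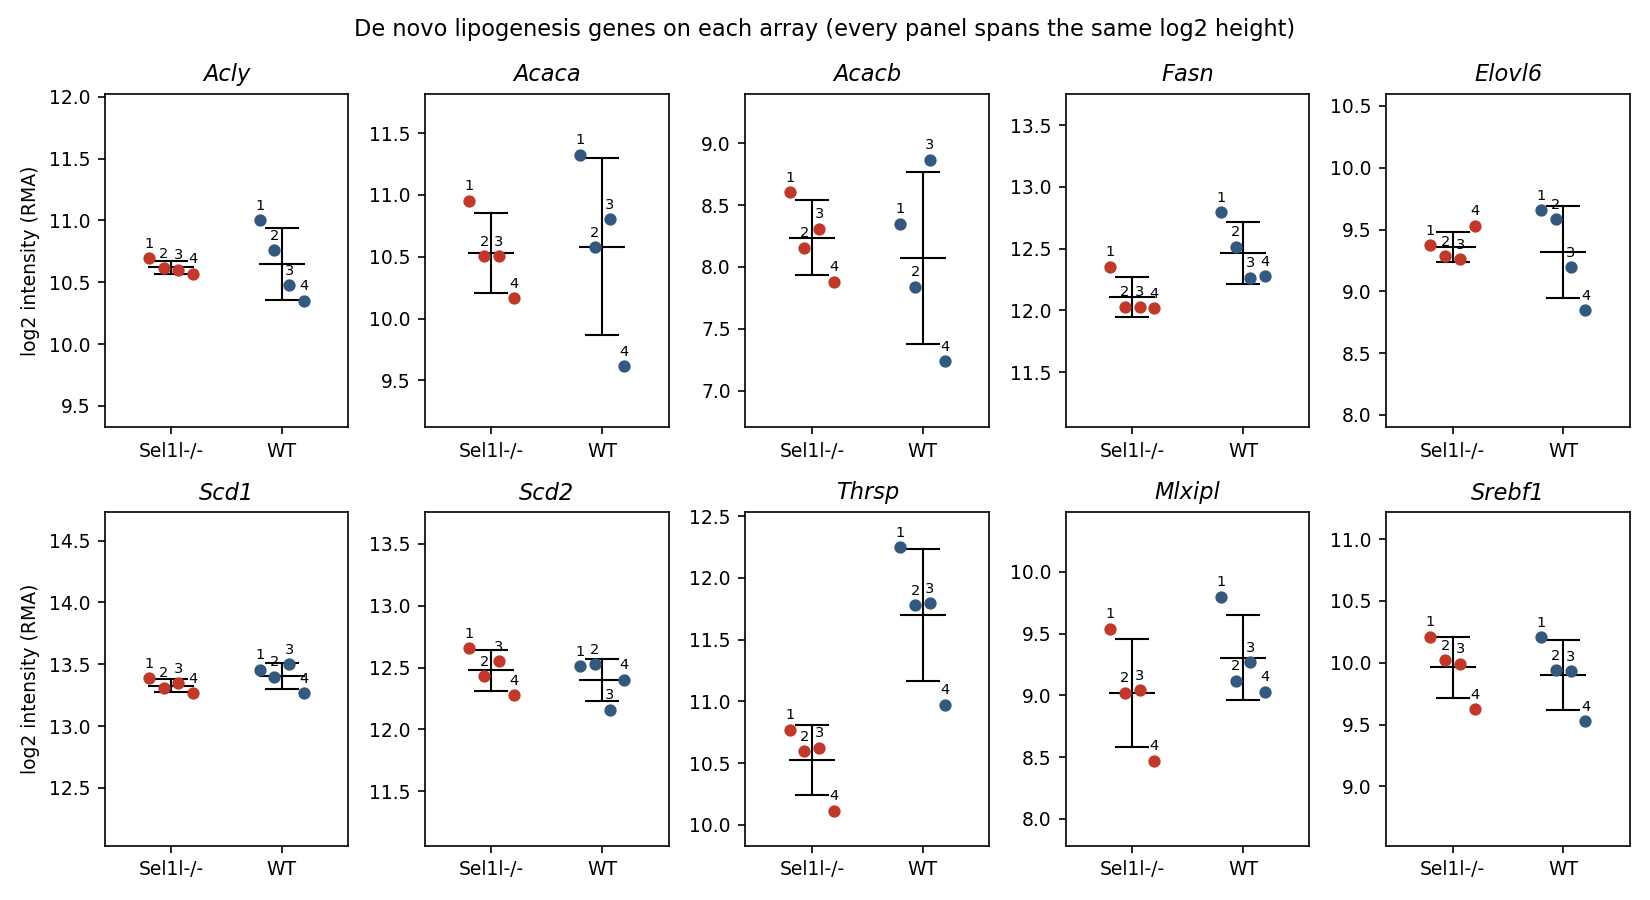
Log2 intensity (RMA) of the 10 lipogenic genes on each of 4 Sel1l-/- (left, red) and 4 WT (right, blue) arrays, with the replicate number above each point and black bars for the mean ± SD. All Sel1l-/- points of Thrsp (10.12 to 10.77) lie below all WT points (10.97 to 12.25), while the genotypes overlap for the other genes.

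Thrsp read 10.77, 10.60, 10.63 and 10.12 in Sel1l-/- mice 1 to 4, against 12.25, 11.78, 11.79 and 10.97 in WT mice 1 to 4. The genotypes did not overlap, and WT 4 was the WT array nearest to the Sel1l-/- arrays. Thrsp was the 1 member of 10 whose Sel1l-/- arrays all lay below the WT arrays, a pattern that 5.07% of all genes had. A gap in the other direction was seen in 0 of the 10 and in 5.22% of all genes, and in either direction in 10.3%. The means were 10.53 ± 0.28 in Sel1l-/- and 11.70 ± 0.53 in WT fat (SD, n = 4 each). The log2 fold change was -1.17 (standard error 0.26, 95% interval -1.75 to -0.59), and its limma adjusted p was 0.0659. With the replicate number as a block the adjusted p was 0.00953 and the interval was -1.42 to -0.92. With 1 number left out under the block, the adjusted p was 0.0512 without number 1, 0.0511 without 3, 0.0358 without 2 and 0.0167 without 4. With no block and 1 array left out, the limma adjusted p was 0.0180 without WT 4 (log2 fold change -1.41). Without any other array it was 0.116 to 0.163. It was 0.0216 with array weights and 0.0447 with the dimmer 50% of genes left out. With no moderation it was 0.178, and with the code number as a block 0.229. Within the mice of code letter F, WT 4 against Sel1l-/- 1 and 2, the difference was -0.29, and within code numbers 5, 7 and 9 it was -0.99, -1.34 and -1.20. With the letter as a block, a fit that rests on those 3 mice, the adjusted p was 0.780. In bulk tissue, fewer adipocytes and less RNA per adipocyte cannot be told apart by the level of 1 gene. The log2 fold changes of 8 adipocyte markers had a median of -0.12 and ran from -0.56 (Adipoq) to -0.039 (Fabp4). The 95% intervals of Retn (-0.88 to 0.34) and Adipoq (-0.86 to -0.27) overlapped that of Thrsp. Those of Pparg (-0.50 to 0.13), Lipe, Lep, Plin1, Cidec and Fabp4 lay wholly above that of Thrsp. Whether the share of adipocytes bears on the level of Thrsp was not tested.

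Fasn, the synthase that makes palmitate, read 12.35, 12.03, 12.03 and 12.02 in Sel1l-/- mice 1 to 4, against 12.79, 12.52, 12.27 and 12.28 in WT mice 1 to 4. Sel1l-/- 2, 3 and 4 lay below every WT array, and Sel1l-/- 1 lay above WT 3 and WT 4. The means were 12.11 ± 0.16 in Sel1l-/- and 12.46 ± 0.25 in WT fat (SD, n = 4 each). The log2 fold change was -0.36 (standard error 0.13, 95% interval -0.66 to -0.054, limma adjusted p = 0.256). With the replicate number as a block, where each Sel1l-/- mouse is set against the WT mouse of its number, the interval was -0.52 to -0.19 and the adjusted p 0.0492. That blocked call was lost on leaving out any 1 of the 4 numbers (adjusted p of 0.0826 to 0.193). The difference was -0.087 within letter F and -0.51, -0.33 and -0.23 within code numbers 5, 7 and 9.

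**Figure D2:**
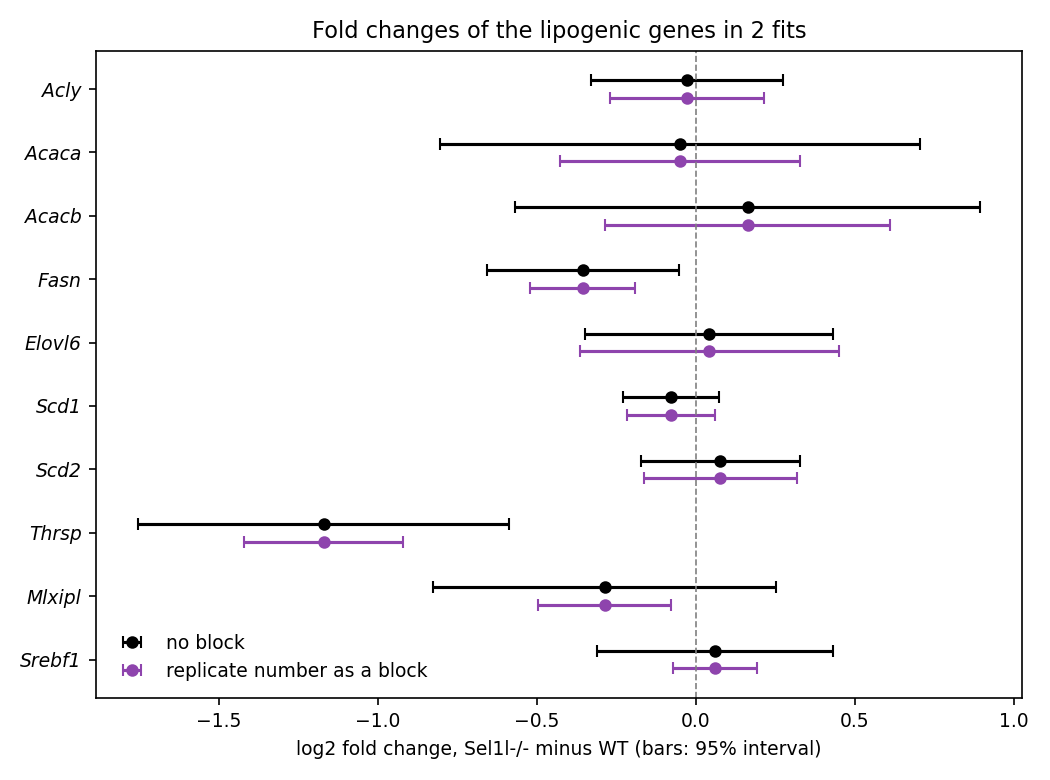
Log2 fold change of each gene, Sel1l-/- minus WT, with its 95% interval from limma without a block (black) and with the replicate number as a block (purple). The intervals of Thrsp and Fasn lie below 0 in both fits, and that of Mlxipl lies below 0 in the blocked fit alone.

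None of the 3 genes that supply acetyl-CoA and malonyl-CoA passed the threshold. Acly read 10.69, 10.61, 10.60 and 10.57 in Sel1l-/- mice, against 11.003, 10.76, 10.48 and 10.35 in WT mice. The WT arrays spread to both sides of the Sel1l-/- arrays, and the log2 fold change was -0.028 (95% interval -0.33 to 0.27). Acaca, the carboxylase that feeds fatty acid synthesis, read 10.95, 10.50, 10.50 and 10.17 in Sel1l-/- mice, against 11.33, 10.58, 10.81 and 9.62 in WT mice. WT 1 was the highest and WT 4 the lowest of all 8, and the interval of its log2 fold change was wide (-0.049, -0.80 to 0.71). A dimmer second probe set of Acaca, not used in the fit, gave -0.043 (standard error 0.43). Acacb, the carboxylase at mitochondria whose malonyl-CoA restrains fatty acid oxidation, read 8.61, 8.16, 8.31 and 7.88 in Sel1l-/- mice, against 8.35, 7.84, 8.87 and 7.24 in WT mice. Its log2 fold change was 0.16 (95% interval -0.57 to 0.89), with the Sel1l-/- arrays inside the WT range.

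Among the enzymes that modify palmitate, Elovl6 read 9.37, 9.29, 9.26 and 9.53 in Sel1l-/- mice, against 9.66, 9.58, 9.19 and 8.85 in WT mice. The order of the mice numbered 4 differed between genotypes, since Sel1l-/- 4 was the highest of its group and WT 4 the lowest of its own. The log2 fold change was 0.042 (95% interval -0.35 to 0.43). Scd1, the main desaturase of fat, read 13.39, 13.31, 13.35 and 13.27 in Sel1l-/- mice, against 13.46, 13.40, 13.50 and 13.27 in WT mice. These values lie close to 13.88, the highest value on any array, and a possible loss of contrast near the top of the scale was not tested. Its log2 fold change was -0.078 (95% interval -0.23 to 0.073), the narrowest interval of the 10. Scd2 read 12.66, 12.43, 12.55 and 12.28 in Sel1l-/- mice, against 12.51, 12.53, 12.16 and 12.40 in WT mice, a log2 fold change of 0.077 (95% interval -0.17 to 0.33). The Scd genes are close relatives, and the sources used here do not say how far their probe sets read each other's RNA.

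Neither of the 2 transcription factors passed the threshold. Srebf1 read 10.21, 10.02, 9.99 and 9.62 in Sel1l-/- mice, against 10.21, 9.94, 9.93 and 9.53 in WT mice. The groups covered nearly the same range, and the log2 fold change was 0.060 (95% interval -0.31 to 0.43, and -0.072 to 0.19 with the block). Mlxipl read 9.54, 9.02, 9.04 and 8.47 in Sel1l-/- mice, against 9.80, 9.12, 9.27 and 9.03 in WT mice. Sel1l-/- 4 was the lowest of all 8, and the log2 fold change was -0.29 (95% interval -0.83 to 0.25, adjusted p = 0.639, and 0.123 with the block). Both genes have isoforms from different starts, which are not told apart by 1 probe set per gene, and the cut form of SREBP-1 is not measured by RNA. Within code letter F, WT 4 against Sel1l-/- 1 and 2, the differences of the 8 genes other than Thrsp and Fasn were all positive, from 0.084 for Scd1 to 1.14 for Acacb.

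Set against the WT mouse of the same number, Thrsp was lower in all 4 pairs, with log2 differences of -1.48, -1.18, -1.17 and -0.86 in pairs 1 to 4. Fasn was lower in all 4 as well (-0.44, -0.48, -0.24 and -0.26), and so was Mlxipl (-0.26, -0.10, -0.23 and -0.56). Srebf1 was higher in all 4, by 0.0040, 0.080, 0.061 and 0.094. The other 6 genes had pairs of both signs, with differences of -0.56 to 0.68 for Acacb and Elovl6, the most widely spread. Over all genes, 15.3% were lower and 14.7% higher in all 4 pairs, beside 3 and 1 of these 10 genes. The pairing rests on the numbers and the data, and the labels do not say what a number stands for. In no pair do the mice share the letter or the number of the mouse code.

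**Figure D3:**
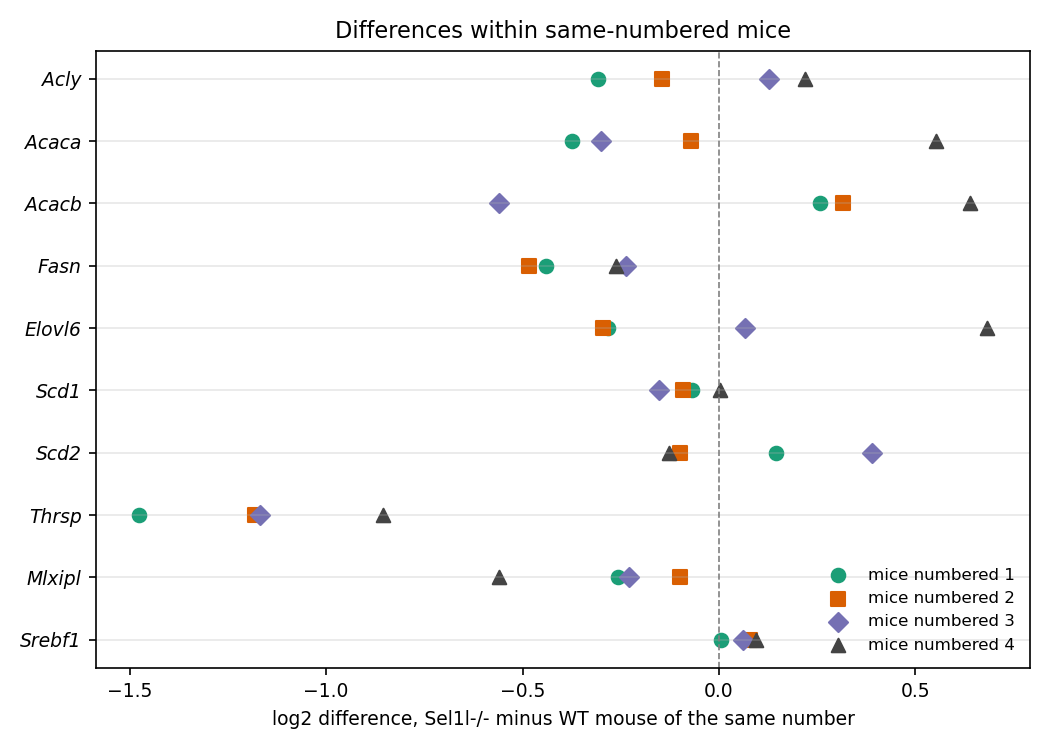
Log2 difference between the Sel1l-/- and the WT mouse of the same replicate number (x axis) for each gene, with 1 symbol per number. The 4 symbols of Thrsp lie between -1.48 and -0.86, those of Srebf1 between 0.0040 and 0.094, and those of Acacb and Elovl6 fall on both sides of 0.

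Within a genotype the 10 genes varied together. After each genotype's mean was subtracted, 44 of the 45 pairs of genes correlated positively over the 8 arrays, with a median Pearson r of 0.718 and a range of -0.079 to 0.974. These correlations describe 8 arrays that share their normalization, and 4 of the arrays come from each genotype. The share of positive pairs among other genes was not computed, so the count is not shown to be particular to these genes. Thrsp followed Acaca (0.972) and Srebf1 (0.969) most closely. Acacb followed Scd1 (0.974), while Acly followed Fasn (0.893) and Elovl6 (0.869). Scd2 followed the mean of the other members least (0.406), and Acaca followed it most (0.981). The mean of the 10 genes over the arrays was 10.86, 10.60, 10.63 and 10.39 in Sel1l-/- mice 1 to 4, against 11.14, 10.80, 10.83 and 10.35 in WT mice 1 to 4. Mouse 1 was thus the highest and mouse 4 the lowest of each genotype.

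Levels of cell type markers varied along with the lipogenic genes. The mean of 7 macrophage markers was 10.47, 10.83, 10.79 and 11.24 in Sel1l-/- mice 1 to 4, against 10.07, 10.77, 10.08 and 10.83 in WT mice 1 to 4. Within genotypes it ran opposite to the mean of the lipogenic genes (r = -0.823, 8 arrays). The mean of 8 adipocyte markers, which ranged from 12.24 to 12.62 in Sel1l-/- and from 12.54 to 12.78 in WT mice, ran with it (r = 0.799). The tissue label was checked by the 8 adipocyte markers, whose lowest value on any array was 11.57 (Pparg in Sel1l-/- 4). None of these 15 markers passed the threshold without the block, and all 7 macrophage markers had positive and all 8 adipocyte markers negative log2 fold changes. With the macrophage mean as a covariate the log2 fold change of Thrsp was -0.81 (adjusted p = 0.0736), and with the adipocyte mean it was -0.73 (0.0943). For Fasn these values were -0.25 (0.418) and -0.23 (0.487). The adipocyte markers had log2 fold changes of -0.039 for Fabp4 (95% interval -0.18 to 0.10), -0.089 for Plin1, -0.11 for Cidec, -0.11 for Lep, -0.12 for Lipe, -0.18 for Pparg, -0.27 for Retn and -0.56 for Adipoq. The last of these, the gene of the hormone adiponectin, averaged 12.15 ± 0.24 in Sel1l-/- and 12.72 ± 0.15 in WT fat (SD, n = 4 each), with an adjusted p of 0.0753, and 0.0204 with the replicate block. Neither marker mean used as a covariate is independent of the genotype.

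**Figure D4:**
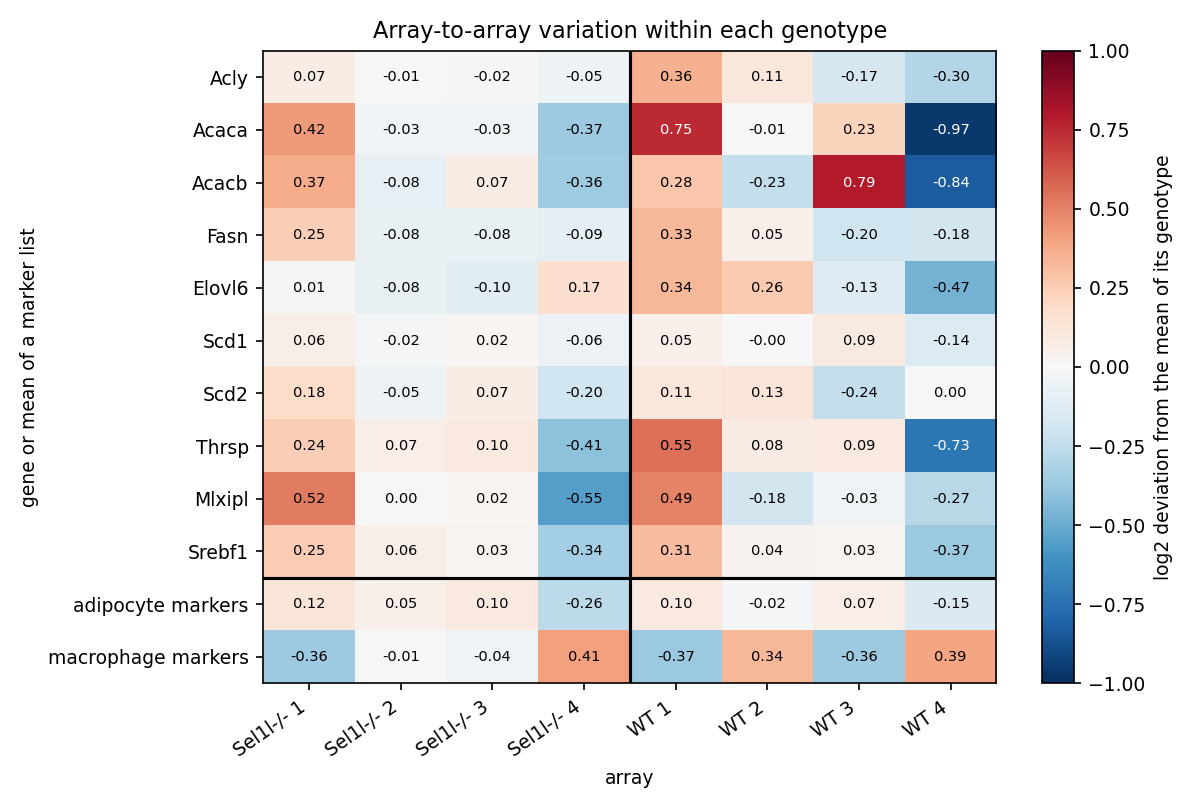
Deviation of each array from the mean of its genotype, on the log2 scale, for the 10 lipogenic genes and for the means of 8 adipocyte and 7 macrophage markers, with Sel1l-/- arrays on the left and WT arrays on the right. Most lipogenic genes are above the mean on arrays numbered 1 and below it on arrays numbered 4, and the macrophage row has the opposite colours there.

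The genes whose variation within genotypes was most like the mean of the 10 were Tanc1 (r = 0.995), Wapl (0.995), Skint9 (0.991), Galnt2 (0.989) and Baz1b (0.988). Wapl acts in the release of cohesin and Galnt2 starts O-linked glycosylation. Skint9 was dim, at 2.67 to 2.72 in Sel1l-/- and 2.66 to 2.74 in WT mice, so its deviations were very small. With 8 arrays, 377 of the 18810 other genes reached an r of 0.9 or more.

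The rest of the pathway was read from 3 lists, of which 45 of 49 genes were measured. G6pdx, Pdha1, Mbtps2 and Nr1h2 are not analysed here. None of the 45 passed the threshold in either direction with limma, with or without the replicate block, and 7 had an unadjusted p under 0.05, beside 15% of all genes. The arrays of the genotypes did not overlap for Scd3 and Elovl3, which were higher in Sel1l-/-, and for Hacd1, Slc2a4 and Nr1h3, which were lower, 5 of the 45 genes beside 10.3% of all genes. Of 9 genes that supply substrate and NADPH, 7 had positive log2 fold changes, with a median of 0.059 and a range of -0.11 to 0.15. Slc25a1, the citrate carrier of mitochondria, averaged 12.04 ± 0.07 in Sel1l-/- and 11.89 ± 0.12 in WT fat (SD, n = 4 each, adjusted p = 0.389), and Cs, citrate synthase, averaged 11.87 ± 0.11 in Sel1l-/- and 11.74 ± 0.11 in WT fat (adjusted p = 0.516). Me1, a source of NADPH, had a log2 fold change of -0.042 (95% interval -0.27 to 0.19).

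Larger differences that did not pass the threshold stood among the 16 other elongases, desaturases and their partners, whose median log2 fold change was 0.023. Hacd1, a dehydratase of fatty acid elongation, read 8.65, 8.66, 8.40 and 8.66 in Sel1l-/- mice, against 9.08, 9.01, 9.15 and 8.84 in WT mice. The genotypes did not overlap, and the log2 fold change was -0.43 (standard error 0.090, adjusted p = 0.0587). The call was made with the arrays centred on their medians (adjusted p = 0.0410), with array weights (0.0308), with the dimmer 50% of genes left out (0.0360), with the mean of its probe sets (0.0288) and without WT 4 (0.0382). It was not made in the other fits. Among these were the replicate block (0.0697), the code number as a block (0.107) and no moderation (0.124). Leaving out any other array gave 0.0793 to 0.152, and a number under the replicate block 0.0750 to 0.222. With the code letter as a block the log2 fold change was -0.19. Elovl3, an elongase of brown fat and skin, read 5.73, 4.95, 4.93 and 4.94 in Sel1l-/- mice, against 4.38, 4.62, 4.25 and 4.34 in WT mice. It was dim on all arrays, the genotypes did not overlap, and the log2 fold change was 0.74 (standard error 0.18, adjusted p = 0.0980).

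Scd3, a further stearoyl-CoA desaturase, is named after its values were seen. It read 9.85, 9.29, 9.48 and 5.92 in Sel1l-/- mice 1 to 4, against 5.69, 5.46, 5.60 and 5.43 in WT mice 1 to 4. Sel1l-/- 1, 2 and 3 stood far above all WT arrays, and Sel1l-/- 4 lay just above them. The difference on the log2 scale was 3.09, with an adjusted p of 0.0990 and of 0.0510 with the replicate block. Without Sel1l-/- 4 it was 3.99, with an adjusted p of 5.59e-05. Without any other array it was 2.68 to 3.13, with an adjusted p of 0.137 to 0.238. The WT values lie below the median of all probe sets (6.05 to 6.08 on the WT arrays), so the WT level is not shown to be above background. Both the size of this difference and its rank among genes therefore rest on a WT level that may be background. Scd4, another member of the family, read 4.46 to 4.62 in Sel1l-/- and 4.18 to 4.83 in WT mice, below the array median everywhere, so its level is not shown to be above background in either genotype.

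Of 20 other regulators and targets, 13 had negative log2 fold changes, with a median of -0.065. Slc2a4, the insulin-responsive glucose transporter GLUT4, read 9.74, 9.58, 9.65 and 8.21 in Sel1l-/- mice, against 10.56, 10.10, 10.46 and 10.16 in WT mice. The genotypes did not overlap, and the log2 fold change was -1.02 (standard error 0.32, adjusted p = 0.176). Without Sel1l-/- 4, the lowest array, it was -0.66 with an adjusted p of 0.0442. Without any other array the adjusted p was 0.186 to 0.347. The log2 fold change of Slc2a4 was -0.60 (adjusted p = 0.281) with the macrophage mean as a covariate and -0.40 (0.238) with the adipocyte mean. Pnpla3, a lipid droplet protein encoded by a target of SREBP-1 and ChREBP, averaged 10.45 ± 0.36 in Sel1l-/- and 11.04 ± 0.31 in WT fat (SD, n = 4 each), and its log2 fold change was -0.59 (95% interval -1.06 to -0.13, adjusted p = 0.220). Of the Insig proteins, which retain SREBP-1 in the ER, Insig1 had a log2 fold change of 0.18 (95% interval -0.094 to 0.45) and Insig2 one of -0.092 (-0.36 to 0.17). Scap, the escort of SREBP-1 to the Golgi, had one of -0.039 (-0.16 to 0.084).

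**Figure D5:**
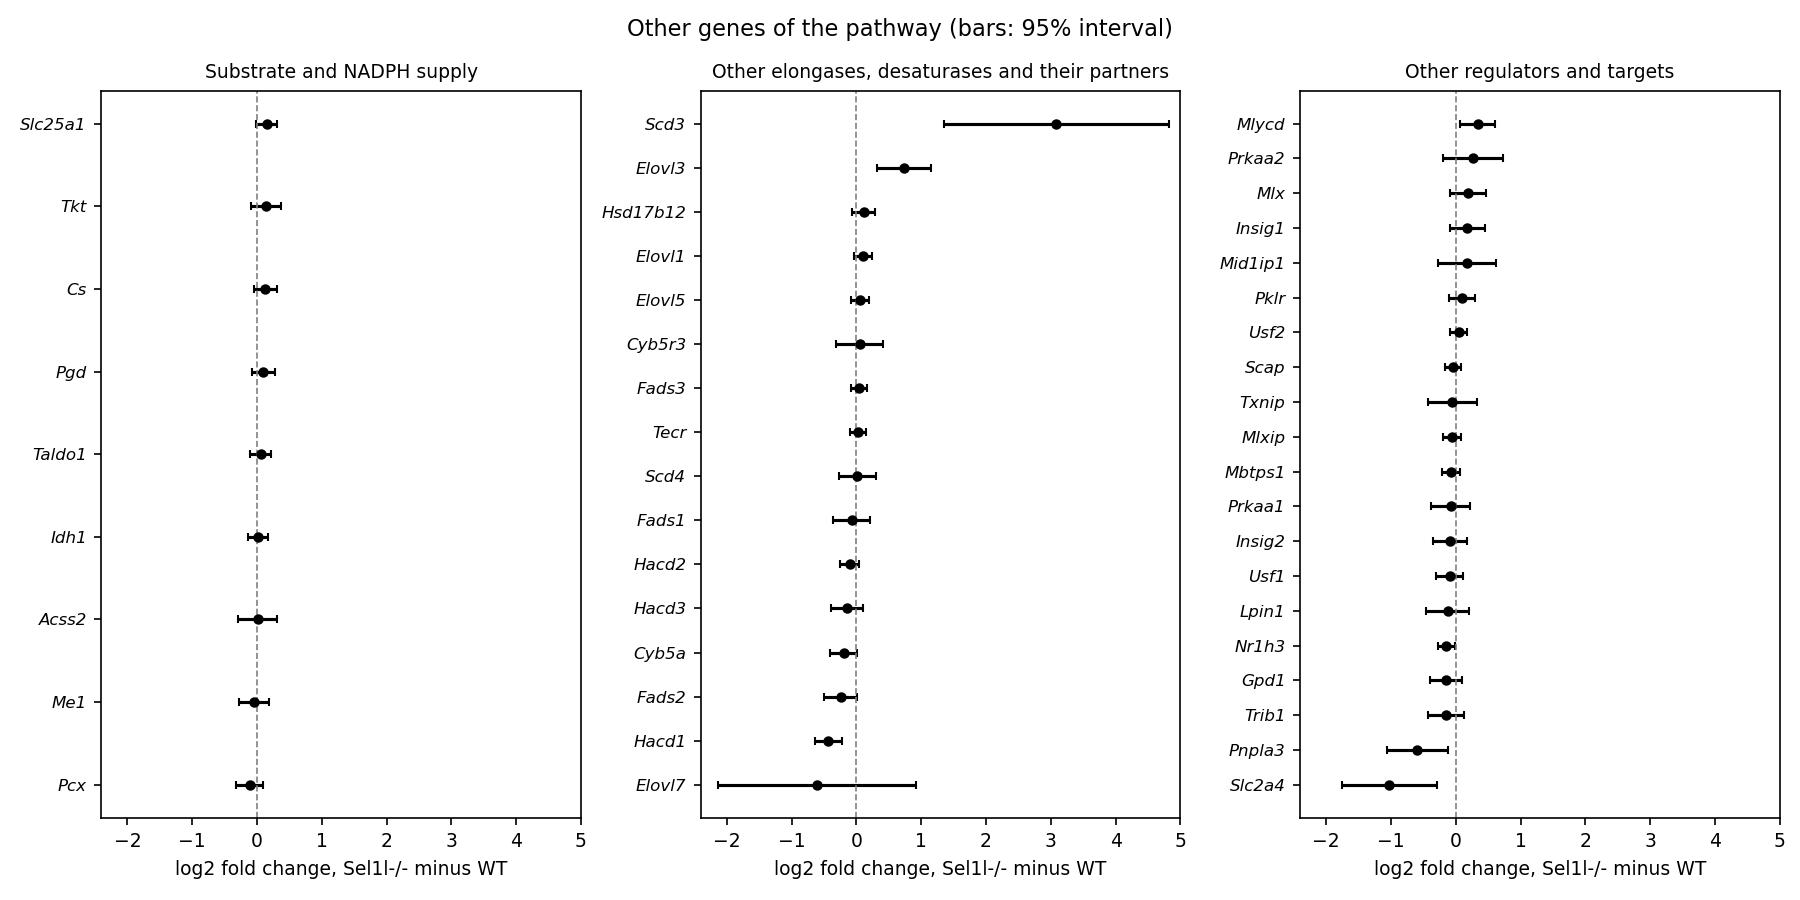
Log2 fold change (Sel1l-/- minus WT) with its 95% interval for 9 genes of substrate and NADPH supply, 16 other elongases, desaturases and partners, and 20 other regulators and targets. Scd3 lies at 3.09, against WT values below the array medians, and Slc2a4 lies at -1.02.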

How the data were processed

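The deposited table holds log2 intensities of 35556 probe sets on 8 arrays, made by the authors with RMA per the submitters' processing notes, which name no version. RMA corrects background, makes the arrays' distributions alike and summarizes probes, so a shift shared by most RNAs cannot be seen. That the scale is log2 was inferred from the range, 1.72 to 13.88. Gene names came from GEO's annotation of the platform. Of the probe sets, 21218 had 1 gene, 1881 had several and 12457 were unnamed here, and 18820 genes were tested, each by its brightest probe set, with no filter. Array medians were 6.10 to 6.14 in Sel1l-/- and 6.05 to 6.08 in WT.

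Testing used lmFit and eBayes of limma 3.58.1 under R 4.3.3 (two-sided, Benjamini-Hochberg over all genes, threshold 0.05), checked on simulated data. Intervals are limma's 95% intervals. For numbers 1 to 4, the correlation of the 2 mice's deviations from their genotype's mean was 0.518, 0.107, 0.363 and 0.524. Mice of different numbers correlated at -0.489 to 0.328, a range that holds the 0.107 of number 2. The replicate numbers were taken as pairs on the evidence of these same arrays, since no label explains them. The adjusted p values of the replicate block rest on that pairing, which the data do not bear out for number 2. Alternatives were blocks for the replicate number and for the letter and number of the mouse code, median centring, filters on dim genes, other variance settings, array weights, probe set means and leaving out each array. Marker means as covariates and the block without 1 number were added after seeing the data.

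The genes and lists were chosen with earlier results of these data known. Named genes were the 10 members, Sel1l, in each pathway list the called genes with the 4 smallest p or else the 2 genes with the smallest p, and the 5 genes most like the members' mean. Scd3, Scd4, Nr1h3, Me1, Insig1, Insig2, Scap, Prkaa2 and the named markers lie outside this rule and were chosen after their values were seen. Marker lists covered adipocytes, brown or beige adipocytes, macrophages, endothelium, fibroblasts, lymphocytes, skeletal muscle, epithelium and hepatocytes. Promoter stretches are RefSeq's on GRCm38.p6. Figures were drawn with Python 3.11.15 and matplotlib 3.10.9.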

Additional observations from a re-analysis of the deposited data

Results flagged for a closer look

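In 44 groups of 4 arrays, made of the genes named by rule in each genotype, 4 held 1 array far from the other 3 by Dixon's test, where chance flags about 1 in 20 groups. With Scd3, which was chosen after its values were seen, there were 5 in 46, and all 5 were Sel1l-/- groups. Fasn was at 12.35 in Sel1l-/- 1, and the nearest of the others was at 12.03. Elovl3 was at 5.73 in Sel1l-/- 1, with the nearest at 4.95. Slc2a4 was at 8.21 in Sel1l-/- 4, with the nearest at 9.58, and Scd3 at 5.92 in the same mouse, with the nearest at 9.29. Hacd1 was at 8.40 in Sel1l-/- 3, with the nearest at 8.65, a small gap that stands out because the other 3 values nearly coincide. Sel1l itself was at 10.07 in Sel1l-/- 4, the highest of the Sel1l-/- mice, and at 9.56 in Sel1l-/- 1, the lowest. Sel1l-/- 4 also had the lowest adipocyte marker mean (12.24) and the highest macrophage marker mean (11.24) of all arrays. Whether the Sel1l level or these marker means bear on the values of Scd3 and Slc2a4 was not tested.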

How the results depend on the processing

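None of the 10 members was called higher in any fit that was run. The number called lower was 0 as reported, 2 with the replicate block, 1 with the dimmer 50% of genes left out, 1 with array weights, and 0 to 1 when an array, or a number under the block, was left out. The single calls were of Thrsp. In the other pathway lists 0 genes were higher as reported, 1 with array weights or the macrophage covariate, 2 with the adipocyte covariate, and 0 to 1 with an array or number left out. There 0 were lower as reported, 1 with centred arrays, the dimmer 50% left out, array weights or probe set means, and 0 to 1 with an array or number left out. The calls were of Scd3 and Prkaa2 (higher) and of Hacd1 and Slc2a4 (lower). The median of the members was -0.038 as reported, 0.28 with the letter block, 0.081 with the macrophage and 0.11 with the adipocyte covariate, -0.13 to 0.10 with an array left out (0.10 without WT 1), -0.14 to 0.057 with a number left out under the block, and -0.21 within code number 9. Thrsp, Fasn, Slc2a4, Pnpla3 and Hacd1 stayed negative and Scd3 and Elovl3 positive in all fits, while Elovl3 was not tested with the dimmer 50% left out.

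Of the members, all but Thrsp and Fasn turned sign in some fit. With the letter block Acly was 0.30, Acaca 1.11, Scd1 0.084 and Mlxipl 0.25. With the macrophage covariate Acly was 0.064, Acaca 0.44 and Mlxipl 0.070, and with the adipocyte covariate Acly was 0.090, Acaca 0.48, Scd1 0.0017 and Mlxipl 0.13. Elovl6 was -0.020 with the code number as a block and -0.085 with array weights. Within code number 5 Acaca was 0.034, within 7 Scd2 was -0.062, Elovl6 -0.13 and Srebf1 -0.023, and within 9 Acly was 0.14 and Acacb -0.71. With an array left out the ranges were -0.13 to 0.091 for Acly, -0.37 to 0.20 for Acaca, -0.12 to 0.43 for Acacb, -0.0030 to 0.15 for Scd2, -0.12 to 0.15 for Elovl6 and -0.065 to 0.17 for Srebf1. With a number left out under the replicate block they were -0.11 to 0.066 for Acly (0.012 without number 2), -0.25 to 0.059 for Acaca (0.036 without number 3), -0.027 to 0.15 for Scd2 and -0.17 to 0.16 for Elovl6. The cause of these turns was not tested. With 4 arrays per group, changes inside the printed intervals could not be told from none.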

Other observations

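Of the marker lists of other cells, the 5 endothelial markers all had negative log2 fold changes (median -0.39), with Pecam1 lower (adjusted p = 0.0290), and 1 of 5 epithelial markers, Cldn3, was lower (adjusted p = 0.0451). Cldn3 read 5.15 to 5.45 in Sel1l-/- and 5.61 to 5.94 in WT mice, below every array median. Its level is therefore not shown to be above background. No brown or beige adipocyte, fibroblast, lymphocyte, skeletal muscle or hepatocyte marker passed the threshold without the replicate block. With it Ppargc1a (0.0481) and Cd79a (0.0496) were lower and Cldn3 was no longer called (0.0536). Without the block, the median log2 fold changes of these lists were 0.43, -0.081, -0.40, 0.039 and -0.10. Of the brown or beige markers, Cox8b (0.85), Ucp1 (0.44) and Cidea (0.43) had positive log2 fold changes, none called in either fit. Those of Ppargc1a and Dio2 were -0.70 and -0.0074. Within genotypes, the mean of the 4 hepatocyte markers correlated with the mean of the lipogenic genes at 0.677, that of the 5 brown or beige markers at 0.488, that of the 5 epithelial markers at 0.476, and those of the other 4 lists at -0.249 to 0.238. Of the hepatocyte markers, Apoa1, Ttr and Fgb lay below every array median, so their levels are not shown to be above background.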
